A study of Mus musculus with 4 samples.

Results

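Chemokines and chemokine receptors were examined in RNA-seq of the injured spinal cord of male mice that carry human ApoE3 or human ApoE4. Members were the listed genes whose symbol begins with Ccl, Cxcl, Ccr, Cxcr or Ackr followed by a number and at most 1 letter. This rule found 31 of 14718 genes, made up of 25 ligands and 6 receptors. At each time point 26 members were listed, of 14125 genes at 7 days post injury (dpi) and 11472 at 21 dpi, and 21 were listed at both.

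The mice were targeted replacement animals in which the coding region of human ApoE3 or ApoE4 stands in place of the mouse gene, and they were injured at 3 to 5 months of age. All of them received a 50 kdyne contusion, which leaves the injury incomplete, at thoracic level 9 under isoflurane. RNA came from a segment of cord that holds the lesion site, and the 4 groups were ApoE3 at 7 dpi, ApoE4 at 7 dpi, ApoE3 at 21 dpi and ApoE4 at 21 dpi. The study's methods give 3 mice per group, but the values used here are 1 per gene and group. No uninjured group was analysed here. No spread between mice can be computed, so every difference below is a description without a replicate check, and no p-value is given. The number of reads behind each value was not computed here and is treated as unknown.

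Values are FPKM, which are normalized to transcript length, so that levels can be compared between genes. Ratios are taken as log2 of ApoE3 FPKM plus 1 over ApoE4 FPKM plus 1, so a positive ratio means higher in ApoE3 and the change of genes with low FPKM is understated. A member is counted as higher in a group when this ratio passes 1.3-fold. The deposited rows can be read in more than 1 way. They name the comparison as ApoE3 versus ApoE4, and that reading was used, whereas the numbering of their columns would exchange the genotypes at both time points. Every direction between ApoE3 and ApoE4, and the genotype attached to every change over time, would then be the opposite.

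Chemokines are small secreted proteins that bind G protein-coupled receptors on leukocytes and guide them into tissue. After spinal cord injury, resident glia and arriving macrophages release CC ligands that recruit monocytes and CXC ligands that recruit neutrophils and lymphocytes. Atypical receptors bind chemokines without the usual G protein signal and remove or transport them.

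**Figure D1:**
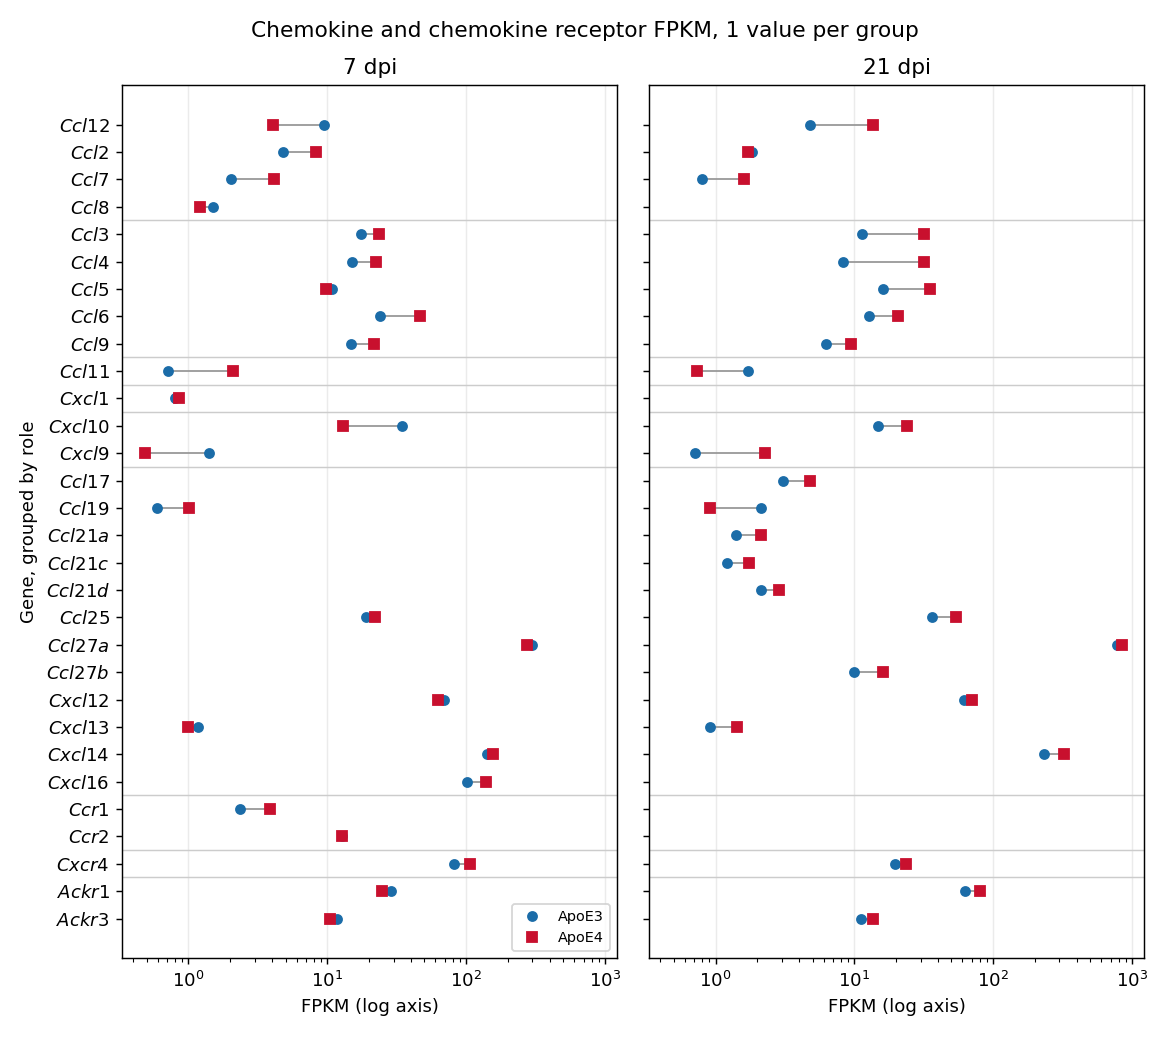
FPKM of members (log axis) at 7 dpi (left) and 21 dpi (right), 1 value per group, with ApoE3 as circles and ApoE4 as squares and genes grouped by role. Ccl27a has the highest level in all 4 groups, and at 7 dpi Cxcl10 and Ccl12 are higher in ApoE3, whereas at 21 dpi they are higher in ApoE4.

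At 7 dpi, the inflammatory ligands split between the genotypes. Cxcl10, Cxcl9 and Ccl12 were higher in ApoE3, and Ccl2, Ccl7, Ccl3, Ccl4, Ccl6, Ccl9, Ccl11, Cxcl16 and the receptors Ccr1 and Cxcr4 were higher in ApoE4. In all, 3 of 26 members were higher in ApoE3, compared to 3.78% of all listed genes, and 10 of 26 were higher in ApoE4, compared to 4.76% of all listed genes. The median log2 ratio of the members was -0.15, and that of all listed genes was 0.0020.

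At 21 dpi, 14 of 26 members were higher in ApoE4 and 2, Ccl11 and Ccl19, were higher in ApoE3. Most listed genes had the same direction, since 58.9% of them were higher in ApoE4 and 2.01% in ApoE3. The summed FPKM of all genes was 1513314 in ApoE3 and 2049860 in ApoE4 at 21 dpi, whereas it was 1668499 and 1668561 at 7 dpi. Among well-expressed genes, meaning those whose FPKM averages 1 or more over the compared groups, the median ratio was -0.42 at 21 dpi, and ratios from which this median was subtracted are called centred. Centred, 5 members were higher in ApoE4 (Ccl12, Ccl3, Ccl4, Ccl5 and Cxcl9), where 8.06% of all genes were, and 3 were higher in ApoE3 (Ccl11, Ccl19 and Ccl2), where 7.46% of all genes were. The median of the members was -0.43 before centring and -0.010 after it. The share of members higher in ApoE4, 53.8%, thus lay near that of all genes, and of the 14 members 5 remained past 1.3-fold once centred. At 7 dpi centring left the same counts of 3 and 10 members, beside 3.75% and 4.82% of all genes.

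**Figure D2:**
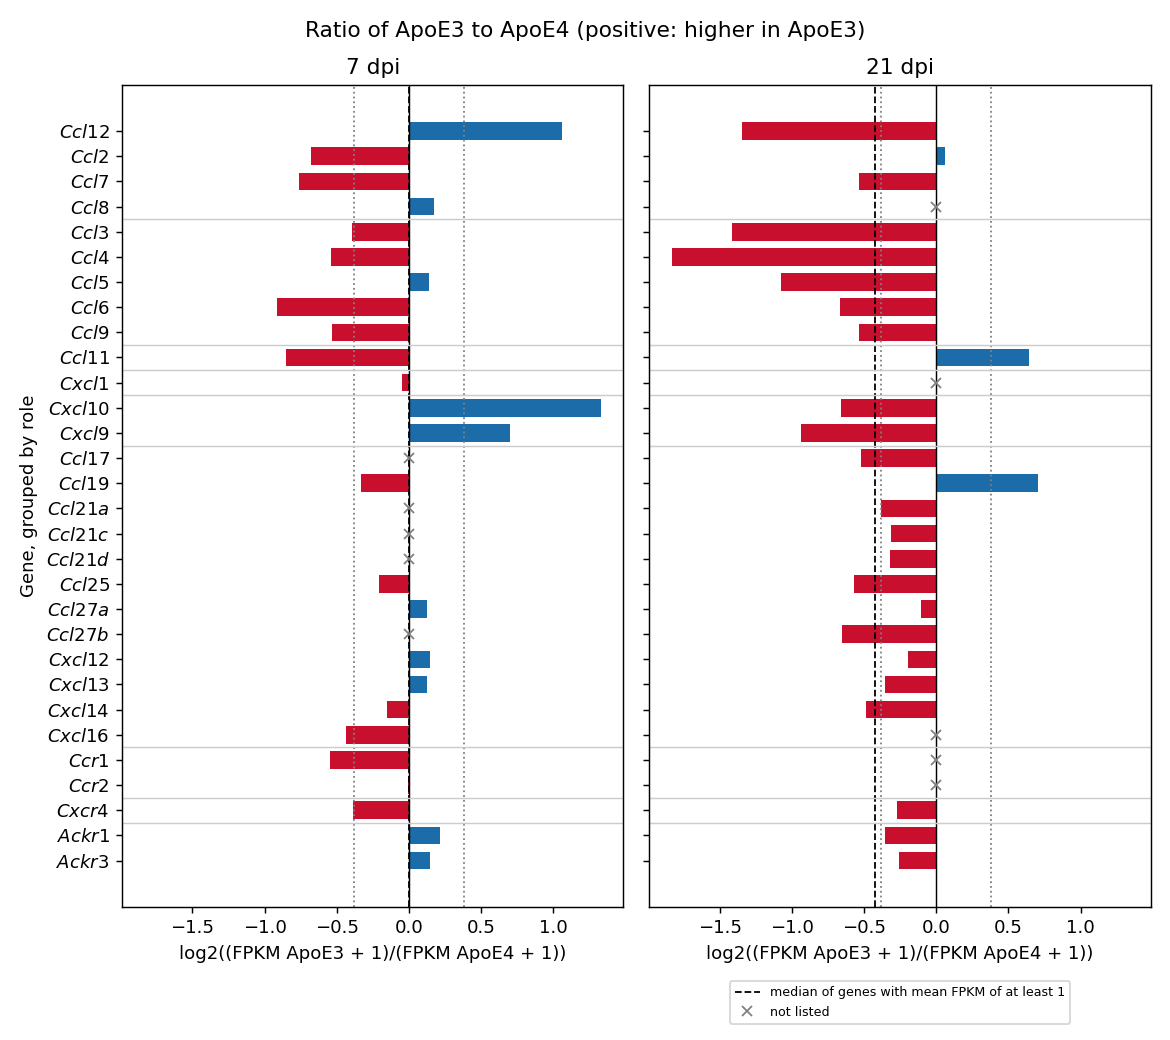
Log2 ratio of ApoE3 to ApoE4 for members at 7 dpi (left) and 21 dpi (right), with dotted lines at 1.3-fold, a dashed line at the median of well-expressed genes, and crosses for members not listed. At 21 dpi the dashed line lies at -0.42, and Ccl4, at -1.83, is farthest below it.

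Among the ligands of Ccr2, the receptor by which monocytes leave the blood for injured tissue, Ccl12 and Ccl2 differed in opposite ways. Ccl12 had 9.48 (ApoE3) and 4.04 FPKM (ApoE4) at 7 dpi, and 4.79 and 13.7 at 21 dpi. Its log2 ratio was 1.06 at 7 dpi and -1.34 at 21 dpi, or -0.92 centred, so the highest of its 4 values was that of ApoE4 at 21 dpi and the lowest that of ApoE4 at 7 dpi.

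Ccl2, the main monocyte attractant of the family, had 4.78 (ApoE3) and 8.23 FPKM (ApoE4) at 7 dpi, a log2 ratio of -0.68. At 21 dpi it had 1.84 and 1.72 FPKM, a ratio of 0.06, or 0.49 centred. Ccl7, another ligand of Ccr2, had 2.03 and 4.14 FPKM at 7 dpi and 0.801 and 1.61 at 21 dpi, and so was higher in ApoE4 at both, although its centred ratio at 21 dpi was -0.11. Ccl8, listed at 7 dpi only, had a mean of 1.36 FPKM over the genotypes and a ratio of 0.17. Together these 4 ligands summed to 17.8 (ApoE3) and 17.6 FPKM (ApoE4) at 7 dpi, since the higher Ccl12 in ApoE3 stood against the higher Ccl2 and Ccl7 in ApoE4. At 21 dpi the 3 listed ones summed to 7.44 and 17.0 FPKM, most of it from Ccl12. Their receptor Ccr2 had 12.7 (ApoE3) and 12.8 FPKM (ApoE4) at 7 dpi, a ratio of -0.0044, and was not listed at 21 dpi in the table used here. In the RefSeq gene order, Ccl2, Ccl7 and Ccl11 follow each other, and Ccl12 and Ccl8 lie next along the same chromosome, separated from them by a gene model without a chemokine name. Neighbours in this run therefore had ratios of opposite sign at 7 dpi.

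The macrophage-attracting ligands Ccl3, Ccl4, Ccl5, Ccl6 and Ccl9 were mostly higher in ApoE4. Of these 5 members, 4 were higher in ApoE4 at 7 dpi and all 5 at 21 dpi, 3 of them also after centring (Ccl3, Ccl4 and Ccl5). Their median log2 ratio was -0.53 at 7 dpi and -1.08 at 21 dpi, or -0.65 centred. Their summed FPKM was 82.4 in ApoE3 and 124 in ApoE4 at 7 dpi, and 54.5 and 129 at 21 dpi.

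Ccl3 had 17.6 (ApoE3) and 23.5 FPKM (ApoE4) at 7 dpi, and 11.3 and 31.8 at 21 dpi, with log2 ratios of -0.40 and -1.41. Ccl4 had 15.1 and 22.5 FPKM at 7 dpi, and 8.26 and 31.9 at 21 dpi, with ratios of -0.54 and -1.83. Both were highest in ApoE4 at 21 dpi and lowest in ApoE3 at 21 dpi, and their ratios at 21 dpi were the lowest of the 26 members. These genes are adjacent in the RefSeq gene order. Ccl5, a ligand made by T cells and macrophages, had 10.9 (ApoE3) and 9.78 FPKM (ApoE4) at 7 dpi, and 16.0 and 34.8 at 21 dpi. Its log2 ratio of 0.14 at 7 dpi did not pass 1.3-fold, whereas that of -1.08 at 21 dpi did.

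Ccl6 and Ccl9, ligands of Ccr1 made by mouse myeloid cells, were higher in ApoE4 at both time points. Ccl6 had 24.0 (ApoE3) and 46.2 FPKM (ApoE4) at 7 dpi, the lowest ratio of that time point at -0.92, and 12.7 and 20.7 at 21 dpi. Ccl9 had 14.8 and 21.8 FPKM at 7 dpi and 6.23 and 9.47 at 21 dpi. At 21 dpi their ratios of -0.66 and -0.53 were -0.24 and -0.11 after centring, and so did not pass 1.3-fold relative to all genes. Their receptor Ccr1 had 2.34 (ApoE3) and 3.89 FPKM (ApoE4) at 7 dpi, a ratio of -0.55, and was not listed at 21 dpi.

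Among the eotaxins, which attract eosinophils through Ccr3, Ccl11 was listed and Ccl24 and Ccl26 were not. Ccl11 had 0.708 (ApoE3) and 2.08 FPKM (ApoE4) at 7 dpi, and 1.70 and 0.732 at 21 dpi. Its log2 ratios were -0.85 and 0.64, with 1.06 centred at 21 dpi. These levels are low, and Ccr3 was not listed at either time point.

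The ligands of Cxcr3, which are induced by interferon and attract activated T cells and NK cells, had their higher level in ApoE3 at 7 dpi but in ApoE4 by 21 dpi. Cxcl10 had 34.2 (ApoE3) and 13.0 FPKM (ApoE4) at 7 dpi, the highest ratio of any member at 1.33. At 21 dpi it had 14.8 and 23.9 FPKM, a ratio of -0.66 that became -0.24 after centring and did not pass 1.3-fold. Cxcl9 had 1.40 and 0.484 FPKM at 7 dpi, a ratio of 0.70, and 0.711 and 2.28 at 21 dpi, a ratio of -0.94 or -0.52 centred. Cxcl11 and Cxcr3 were not listed in the table used here. Transcripts of Art3, the gene next to Cxcl10 in the RefSeq order, hold 1.39% of the 100-base windows of Cxcl10.

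Cxcl10, Cxcl9 and Ccl12 shared an order of genotypes at 7 dpi and the opposite order at 21 dpi, while Ccl3 was higher in ApoE4 at both, so the promoters of these genes are shown side by side. Each run covers 250 bases before and 50 bases from the start of transcription, 5′ to 3′ on the gene's strand, from RefSeq in build GRCm38.p6. The runs lie at chr5:92348840-92349139 on the minus strand for Cxcl10, chr5:92328030-92328329 on the minus strand for Cxcl9, chr11:82101595-82101894 on the plus strand for Ccl12 and chr11:83649329-83649628 on the minus strand for Ccl3. Capitals mark matches, on either strand, to the letters TATAAA, a form of the TATA box, which lies shortly before the start of many inducible genes.
Cxcl10: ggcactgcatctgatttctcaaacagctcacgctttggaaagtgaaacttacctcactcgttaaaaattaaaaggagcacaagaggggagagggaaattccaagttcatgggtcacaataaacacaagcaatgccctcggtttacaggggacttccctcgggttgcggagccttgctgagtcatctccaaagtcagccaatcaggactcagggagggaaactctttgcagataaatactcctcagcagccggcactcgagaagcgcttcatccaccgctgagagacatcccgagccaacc
Cxcl9: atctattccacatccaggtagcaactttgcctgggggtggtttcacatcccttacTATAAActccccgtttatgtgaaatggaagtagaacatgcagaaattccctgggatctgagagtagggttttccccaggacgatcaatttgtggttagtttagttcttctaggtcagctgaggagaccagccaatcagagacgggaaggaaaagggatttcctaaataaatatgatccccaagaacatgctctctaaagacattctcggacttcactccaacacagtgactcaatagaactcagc
Ccl12: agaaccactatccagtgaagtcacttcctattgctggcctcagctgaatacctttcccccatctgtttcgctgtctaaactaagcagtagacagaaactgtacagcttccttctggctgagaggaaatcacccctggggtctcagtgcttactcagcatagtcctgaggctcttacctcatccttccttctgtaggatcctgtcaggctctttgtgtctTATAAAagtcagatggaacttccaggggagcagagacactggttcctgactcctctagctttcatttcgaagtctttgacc
Ccl3: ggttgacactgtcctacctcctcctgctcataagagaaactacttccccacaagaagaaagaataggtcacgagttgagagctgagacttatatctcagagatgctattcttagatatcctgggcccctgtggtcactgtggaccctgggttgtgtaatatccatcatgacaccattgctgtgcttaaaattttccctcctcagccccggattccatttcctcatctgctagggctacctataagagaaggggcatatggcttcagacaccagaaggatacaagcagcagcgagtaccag

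The Ccl12 promoter held a match that begins 31 bases before the start, and that of Cxcl9 held a match 195 bases before it. The windows of Cxcl10 and Ccl3 held none. Of 32851 promoters of the same length, 13.6% held these letters, and so did 9 of the 23 members with a promoter in that table (Ackr3, Ccl12, Ccl25, Ccl27b, Ccl8, Ccl9, Cxcl13, Cxcl9 and Cxcr4). The share counts promoters and the members are counted as genes with a match in any promoter, so the measures differ. Matches began 8 bases before the start for Ackr3, 16 for Ccl25, 32 for Ccl8 and 46 for Cxcl13. They began at 30 and 32 for Cxcr4, 92 for Ccl27b, and 92, 94 and 224 for Ccl9. A match is a run of letters and not a measured site, and its absence says only that the letters are not in the window. The table holds no promoter for 8 members, Ccl2, Ccl7, Ccl11, Ccl4, Ccl5, Cxcl16 and Ccl21c among them.

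The genes that carry interferon signals were examined beside the Cxcr3 ligands. Of 10 genes of interferon signaling, 3 were higher in ApoE3 at 7 dpi and none in ApoE4, beside 3.78% and 4.76% of all listed genes. Irf7 had 159 (ApoE3) and 81.9 FPKM (ApoE4), and Stat2 had 17.3 and 12.1. The interferon receptors Ifnar1 and Ifnar2 had ratios of -0.32 and -0.36, below 1.3-fold. They were among 6 of the 10 genes with a ratio below 0, and the list as a whole had a median of -0.085. At 21 dpi neither Irf7 nor Stat2 was listed, and 3 of the 6 listed genes were higher in ApoE4, none of them after centring. Of all listed genes, 58.9% were higher in ApoE4 at 21 dpi, or 8.06% centred.

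Of the neutrophil-attracting CXC ligands, Cxcl1 was the only listed member, with 0.799 (ApoE3) and 0.859 FPKM (ApoE4) at 7 dpi and no entry at 21 dpi. Cxcl2, Cxcl3, Cxcl5 and Cxcl15, and the receptors Cxcr1 and Cxcr2 through which these ligands act, were not listed. A gene that is not listed was not necessarily at 0.

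The homeostatic and lymphoid ligands held the highest levels of the family. Ccl27a, an attractant of skin-homing T cells through Ccr10, had 297 (ApoE3) and 273 FPKM (ApoE4) at 7 dpi, and 785 and 845 at 21 dpi. It made up 38.8% and 33.6% of the summed FPKM of all listed ligands at 7 dpi, and 64.6% and 56.4% at 21 dpi. Its log2 ratios of 0.12 and -0.10, or 0.32 centred at 21 dpi, were below 1.3-fold. The value of Ccl27a is uncertain, because 26.5% of the 100-base windows of its GENCODE vM21 transcripts, as long as the study's reads, also occur in transcripts of other genes. Its exons overlap those of Il11ra1 on the opposite strand by 8 bases, and the library kit does not mark strand. Ccl27b, a near-identical copy listed at 21 dpi with 9.92 and 16.2 FPKM, shares 97.9% of its windows with other genes.

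Cxcl14, which is made by many epithelial and neural cells, was the second most abundant member in every group. It had 140 (ApoE3) and 156 FPKM (ApoE4) at 7 dpi, and 232 and 324 at 21 dpi, and its ratio of -0.48 at 21 dpi was -0.059 after centring. Cxcl16, a membrane-bound ligand of Cxcr6 that also takes up oxidized lipoprotein, had 102 and 138 FPKM at 7 dpi, a ratio of -0.44, and was not listed at 21 dpi. Of its exonic bases, 20.5% overlap Zmynd15 on the opposite strand, so reads of these genes cannot be told apart there. Cxcr6 was not listed.

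Cxcl12 and its receptors Cxcr4 and Ackr3 guide cell migration and vessel growth. Cxcl12 had 68.8 (ApoE3) and 62.3 FPKM (ApoE4) at 7 dpi, and 61.7 and 70.7 at 21 dpi, so that its 4 values lay close together, and its ratio at 21 dpi was -0.19, or 0.23 centred. Cxcr4 had 81.5 and 107 FPKM at 7 dpi, a ratio of -0.39 that just passed 1.3-fold, and 19.5 and 23.7 at 21 dpi, a ratio of -0.27 or 0.15 centred. Ackr3, which binds and clears Cxcl12, had 11.7 and 10.5 FPKM at 7 dpi and 11.2 and 13.5 at 21 dpi, a ratio of -0.25 or 0.17 centred. The receptor Cxcr4 therefore differed more between the time points than either its ligand or Ackr3.

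Ackr1, which venular endothelium uses to carry chemokines across the vessel wall, had 28.8 (ApoE3) and 24.6 FPKM (ApoE4) at 7 dpi, and 62.9 and 80.7 at 21 dpi. Its ratios of 0.21 and -0.35, or 0.069 centred at 21 dpi, did not pass 1.3-fold. Its value is uncertain, since 21.5% of its exonic bases overlap those of Cadm3 on the same strand. Ackr2 and Ackr4 were not listed.

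Ccl25, a ligand of Ccr9, had 19.1 (ApoE3) and 22.2 FPKM (ApoE4) at 7 dpi, and 36.4 and 54.3 at 21 dpi, where its ratio of -0.57 was -0.14 centred. Of the exonic bases of Ccl25, 3.60% overlap those of Elavl1 on the opposite strand. Ccl19 and the Ccl21 copies are ligands of Ccr7, which draws dendritic cells and T cells into lymphoid tissue and was not listed. Ccl19 had 0.594 and 1.01 FPKM at 7 dpi and 2.11 and 0.907 at 21 dpi, and its ratio of 0.71 was the highest of any member at 21 dpi. Of its 100-base windows, 39.3% occur in other genes. At 21 dpi, Ccl21a had 1.41 and 2.14 FPKM, Ccl21d had 2.12 and 2.89, and Ccl21c averaged 1.47 over the genotypes. The Ccl21 genes are near-identical copies, and 50.3% of the windows of Ccl21a occur in other genes, so their separate values are uncertain. Ccl21a just passed 1.3-fold with a ratio of -0.39, which was 0.038 after centring. Ccl17, a ligand of Ccr4, had 3.06 and 4.82 FPKM at 21 dpi, a ratio of -0.52 or -0.097 centred. Cxcl13, which attracts B cells through Cxcr5, had 1.18 and 0.994 FPKM at 7 dpi and 0.907 and 1.43 at 21 dpi, and neither ratio passed 1.3-fold.

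Across both time points, 5 of 21 members were higher in ApoE4 at both (Ccl3, Ccl4, Ccl6, Ccl7 and Ccl9), whereas 2.65% of all genes listed at both had the same direction at both. Another 4 members were past 1.3-fold in opposite directions (Cxcl10, Cxcl9, Ccl12 and Ccl11), compared to 2.71% of all genes. No member was higher in ApoE3 at both. Centred, 2 members remained higher in ApoE4 at both (Ccl3 and Ccl4), beside 1.32% of all genes with the same direction at both. In opposite directions, 4 members passed once centred, with Ccl2 in place of Cxcl10, beside 1.66% of all genes.

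**Figure D3:**
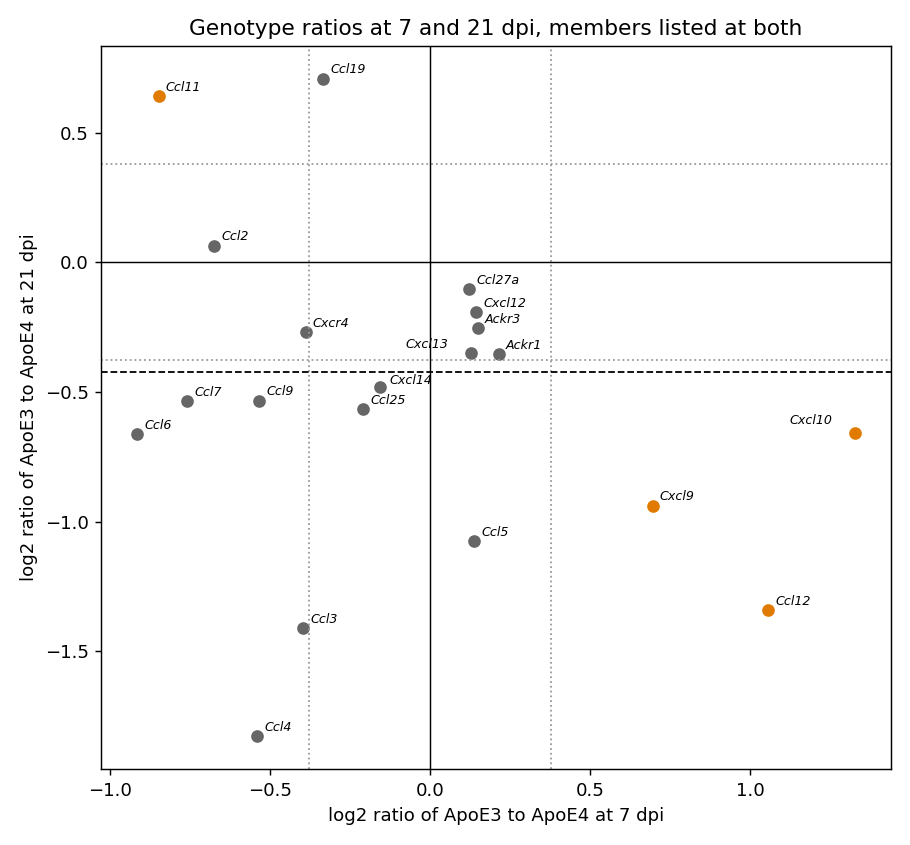
Log2 ratio of ApoE3 to ApoE4 at 7 dpi (horizontal) against 21 dpi (vertical) for members listed at both, with dotted lines at 1.3-fold and a dashed line at the median of well-expressed genes at 21 dpi. Orange points are the 4 members past 1.3-fold in opposite directions, with Cxcl10 at 1.33 and -0.66.

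The levels at 21 dpi were also set against those at 7 dpi within each genotype. The authors compared genotypes within a time point and the time points may have been normalized separately, so these values compare levels across separate comparisons. They use the same 4 values per gene as the genotype ratios and add no independent evidence. In ApoE3, 7 of 21 members were higher and 11 were lower at 21 dpi, beside 31.3% and 23.6% of all genes. In ApoE4, 10 were higher and 7 were lower, beside 59.0% and 10.9% of all genes. All genes were shifted here too, with medians of 0.088 in ApoE3 and 0.53 in ApoE4. Centred, the counts were 7 higher and 11 lower in ApoE3, beside 26.6% and 27.7% of all genes, and 7 higher and 8 lower in ApoE4, beside 26.1% and 28.6%. The median of the members was -0.49 in ApoE3 and 0.34 in ApoE4, or -0.58 and -0.19 centred.

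Both genotypes had lower Cxcr4, Ccl2, Ccl6, Ccl7 and Ccl9 at 21 dpi than at 7 dpi, with and without centring. The log2 ratio of 21 to 7 dpi was -2.01 in ApoE3 and -2.13 in ApoE4 for Cxcr4, the lowest ratio in either genotype. Ccl2 was at -1.02 and -1.76, and Ccl9 was 2.18-fold lower in each genotype. Both genotypes had higher Ccl27a, Ackr1, Ccl25 and Cxcl14 at 21 dpi, and Ccl27a was at 1.40 and 1.63. Ccl5 was at 0.52 in ApoE3 and 1.73 in ApoE4, the highest ratio in ApoE4.

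The genotypes parted for Cxcl10, Cxcl9, Ccl12, Ccl3 and Ccl4, which were lower at 21 dpi in ApoE3 and higher in ApoE4. Cxcl10 was at -1.16 in ApoE3 and 0.83 in ApoE4, and Ccl12 at -0.85 and 1.54. Relative to all genes, the ApoE4 ratios of Cxcl10, Ccl3 and Ccl4 were 0.30, -0.10 and -0.040, below 1.3-fold, whereas those of Ccl12 and Cxcl9 were 1.02 and 0.62. Ccl11 went the other way, with 0.66 in ApoE3 and -0.83 in ApoE4.

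**Figure D4:**
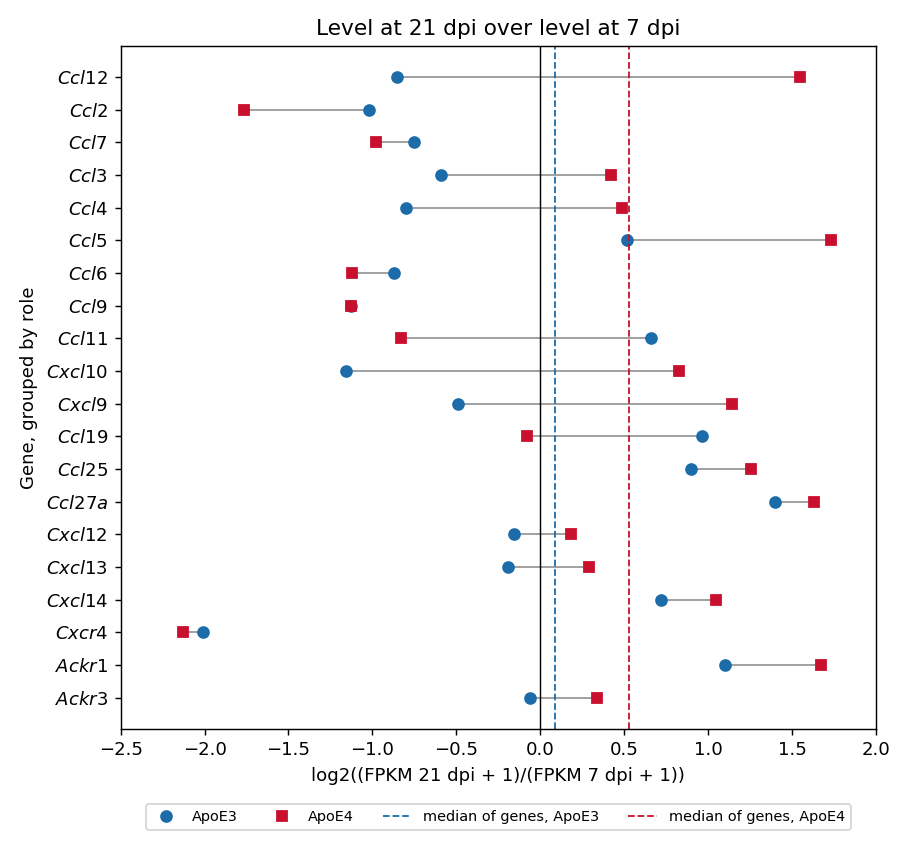
Log2 ratio of the level at 21 dpi to that at 7 dpi for members listed at both, with ApoE3 as circles, ApoE4 as squares and dashed lines at the medians of well-expressed genes in each genotype. Ccl12 has the widest gap, from -0.85 in ApoE3 to 1.54 in ApoE4.

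Chemokine genes outside the name pattern were few. Of 7 such genes 3 were listed, and Cx3cl1, the neuronal ligand that restrains microglia, had 48.3 (ApoE3) and 42.9 FPKM (ApoE4) at 7 dpi, and 71.3 and 97.6 at 21 dpi. Pf4, a platelet and macrophage chemokine, had 12.4 and 21.1 FPKM at 7 dpi and 1.57 and 2.60 at 21 dpi. Ccrl2, which presents chemerin, had 13.1 and 12.9 FPKM at 7 dpi and 4.62 and 10.5 at 21 dpi, a ratio of -1.03 or -0.61 centred. Cx3cr1, Xcl1, Xcr1 and Ppbp were not listed.

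Genes that act after the receptors or act on the ligands were described in the same way. Of all listed genes, 4.76% were higher in ApoE4 at 7 dpi, and 58.9% at 21 dpi, or 8.06% centred. Of 24 genes of chemokine receptor signaling, 22 were listed at 7 dpi, where 2 were higher in ApoE4 and none in ApoE3, with Gnai2 at 512 and 556 FPKM. At 21 dpi, 13 of 20 were higher in ApoE4, and 4 after centring, with 1 higher in ApoE3. Of 13 genes of the NF-kB pathway and its inflammatory inducers, 3 of 12 listed were higher in ApoE4 at 7 dpi, and 5 of 11 at 21 dpi, or 1 centred. The centred median of this list at 21 dpi was 0.046. Of 8 chemokine-processing proteases, 3 of 7 listed were higher in ApoE4 at 7 dpi, and 4 of 6 at 21 dpi, or 1 centred. Mmp12, a macrophage protease that trims CC and CXC ligands, had 89.6 and 127 FPKM at 7 dpi and 7.63 and 23.9 at 21 dpi.

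Markers of the cells that make or follow these ligands were read beside the members, and in bulk tissue fewer cells and less RNA per cell cannot be told apart. For the counts of every marker list, the shares of all listed genes at 7 dpi were 3.78% higher in ApoE3 and 4.76% in ApoE4. At 21 dpi the shares were 2.01% and 58.9%, or 7.46% and 8.06% centred. Of 10 monocyte and macrophage markers, all were listed at 7 dpi, with 4 higher in ApoE4 and none in ApoE3 and a summed 6453 (ApoE3) and 8475 FPKM (ApoE4), most of it from Lyz2. At 21 dpi 7 were listed, 6 of them higher in ApoE4 (4 after centring) and 1, Chil3, higher in ApoE3, with sums of 331 and 642 FPKM. Their centred median was -0.57 at 21 dpi, beside -0.65 for the ligands Ccl3, Ccl4, Ccl5, Ccl6 and Ccl9. From 7 to 21 dpi, across the separately compared time points, the centred median log2 ratio of the markers was -1.81 in ApoE3 and -2.57 in ApoE4, and that of these ligands was -0.89 and -0.10. The part of macrophage number in the ratios of these ligands was not tested. Of 8 microglia markers, 6 were listed at 7 dpi, with sums of 1127 and 1303 FPKM, and 4 at 21 dpi, with 259 and 469, led at 21 dpi by Siglech, and 1 was higher in ApoE4 at 7 dpi, also centred, and all 4 at 21 dpi, or 2 centred. P2ry12 and Cx3cr1 were not listed.

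Of 10 neutrophil markers, 5 were listed at each time point, with sums of 507 and 604 FPKM at 7 dpi and 293 and 439 at 21 dpi, nearly all from Csf3r, at 485 and 589 FPKM at 7 dpi. The sums thus follow Csf3r, whose log2 ratio of -0.28 at 7 dpi did not pass 1.3-fold. At 7 dpi 2 were higher in ApoE3, S100a8 and S100a9, with ratios of 0.53 and 0.72. The 1 higher in ApoE4 was Mmp8, at -0.52. At 21 dpi 4 were higher in ApoE4, or 2 centred. Ly6g, Camp, Retnlg and Mpo were not listed.

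Few lymphocyte markers were listed, and Cd3e, Cd4, Cd8a, Ms4a1 and Ncr1, which define these cells, were not. Of 10 T cell markers, Lck was listed at both time points, with 11.5 (ApoE3) and 4.79 FPKM (ApoE4) at 7 dpi and 11.0 and 8.06 at 21 dpi, and Cd3g at 21 dpi with a ratio of -0.65, or -0.23 centred and so below 1.3-fold. Of 6 B cell markers, Cd79b was listed, with 2.46 and 3.28 FPKM at 7 dpi and 1.19 and 3.03 at 21 dpi. Of 6 NK cell markers, Nkg7 was listed at 21 dpi with 1.23 and 2.62 FPKM. Of 7 eosinophil and mast cell markers, Siglecf was listed, with 3.43 and 3.99 FPKM at 7 dpi and 2.71 and 6.44 at 21 dpi. Of 7 dendritic cell markers, 4 were listed at each time point, led by Itgax and Flt3, with sums of 64.3 and 76.3 FPKM at 7 dpi and 63.5 and 88.7 at 21 dpi, and 1 was higher in ApoE4 at 7 dpi, also centred, and 3 at 21 dpi, or 0 centred. Clec9a, Xcr1 and Ccr7 were not listed.

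**Figure D5:**
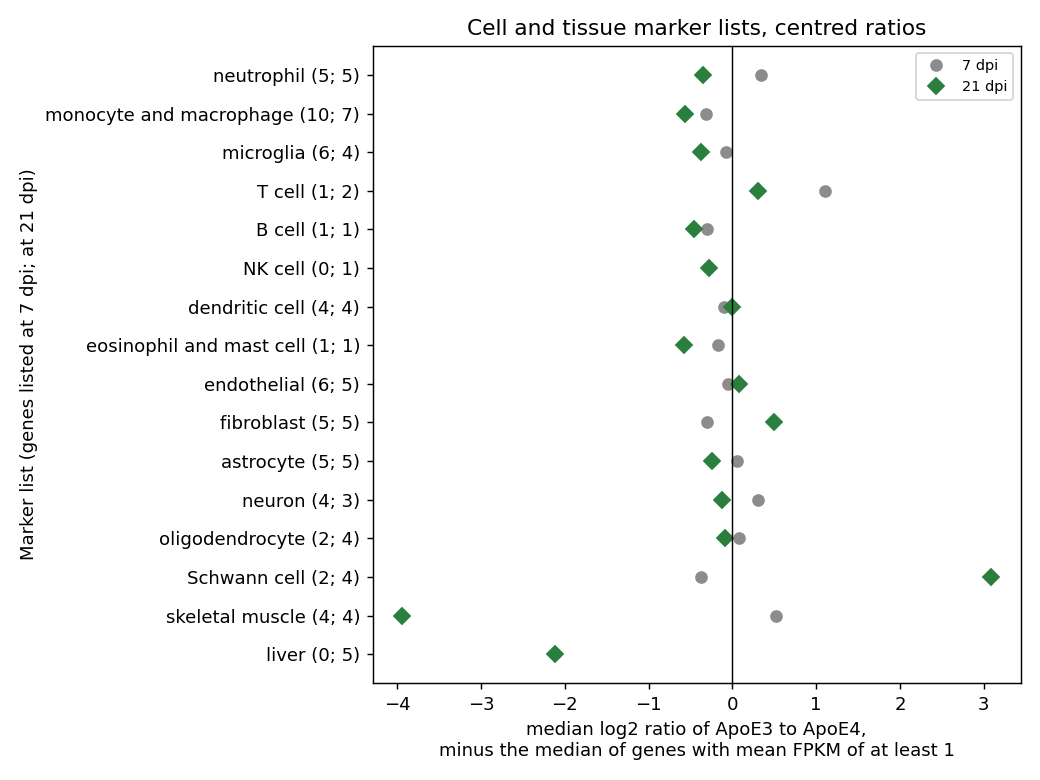
Median log2 ratio of ApoE3 to ApoE4 of each marker list, minus the median of well-expressed genes, at 7 dpi (circles) and 21 dpi (diamonds), with the number of genes listed at each time point in brackets. At 21 dpi the skeletal muscle and Schwann cell lists lie far from 0, at -3.94 and 3.09.

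Markers of other tissues also differed between the groups at 21 dpi. All 4 listed skeletal muscle markers of 5 were higher in ApoE4, with summed levels of 32.6 (ApoE3) and 681 FPKM (ApoE4), most of it from Tnnt3, whereas at 7 dpi the sums were 61.4 and 39.7. All 5 liver markers were higher in ApoE4 at 21 dpi, with sums of 10.3 and 107 FPKM led by Apoa2, and none was listed at 7 dpi. Of 5 Schwann cell markers, 4 were listed at 21 dpi and 3 were higher in ApoE3, and the sums at 7 dpi were 65.4 and 71.8 FPKM, led by Sox10. Ckm and Prx were not listed. Where these transcripts come from, and what part they have in the ratios of the members at 21 dpi, was not tested.

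Of the cells of the cord and its vessels, astrocyte markers summed to 9216 (ApoE3) and 17063 FPKM (ApoE4) at 21 dpi, most of it Gfap, with 2 of 5 higher in ApoE4 after centring, and to 15339 and 15042 at 7 dpi. Neuron markers, of which 4 of 5 were listed at 7 dpi and 3 at 21 dpi, summed to 4864 and 3780.1 FPKM at 7 dpi and 6292 and 9188 at 21 dpi, led by Snap25, with 1 higher in ApoE3 at 7 dpi, also centred, and 2 higher in ApoE4 at 21 dpi, neither when centred, and Eno2 not listed. Oligodendrocyte markers, with 2 and 4 of 5 listed and Mag at neither time point, had sums of 120818 and 127785 FPKM at 7 dpi and 219487 and 308905 at 21 dpi, led by Mbp, and centred medians of 0.077 and -0.082. All 6 endothelial markers, led by Flt1, were listed at 7 dpi, with sums of 241 and 240 FPKM, and 5 at 21 dpi, with 208 and 265, and none passed 1.3-fold at 7 dpi and 1 was higher in ApoE4 at 21 dpi, or 1 in ApoE3 centred. Fibroblast markers, with all 5 listed, summed to 397 and 480 FPKM at 7 dpi, led by Col1a1, and 116 and 78.8 at 21 dpi. At 21 dpi 2 were higher in ApoE3 and 1 in ApoE4, or 4 and 0 centred. The higher sum in ApoE3 came from Dcn, with 61.9 (ApoE3) and 9.37 FPKM (ApoE4). Pdgfra, the highest on average, went the other way, with 42.0 and 58.8 FPKM.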

How the data were processed

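RNA from lesion segments was sequenced as 100-base single-end reads from TruSeq RNA v2 libraries, which do not keep strand. The authors down-sampled the libraries to equal size before alignment. In 1 replicate, whose group the methods do not name, fewer reads aligned than in the rest. The submitters' processing notes name STAR 2.5.4b, Bowtie2, SAMtools 0.1.7 and Cuffdiff 1.3.0. The genome build and annotation are not given in the sources used here. The authors deposited FPKM plus 1, as 1 value per gene and group over 3 mice, and 1 was subtracted. Columns of p-values, q-values and fold changes by the authors, and another deposited file of their log2 values for selected genes, were not used.

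Ratios used a pseudocount of 1 FPKM and a minimum fold of 1.3, and no test was run. Library size after down-sampling is given in the methods, but the table holds no read counts or transcript lengths, so reads per gene were not estimated and no counting error is stated. In the ratios, 3 symbols with 2 rows at a time point were left out, none a member. Genes were named by a rule on level and fold: a mean FPKM of at least 1 with 1.3-fold between genotypes, or the 5 highest levels of a time point, with their receptors and ligands. Level and fold took 23 members, and the receptor and ligand rule added Ccl8, Ccr2 and Ackr3, among others. Results of some genes of the family and of the lists are not reported here. Cxcl1, Cxcl13, Ccl21c and Ccl21d were named outside the rule, after their values were seen, as were Mmp12, Stat2, Ifnar1 and Ifnar2. The members and lists were chosen with earlier results of these data known, and Ccl21d was placed among the homeostatic ligands once listed. The alternatives were a pseudocount of 0.1, a minimum fold of 2, a mean FPKM of at least 1, and centring on the median of the genes that reach that mean. Centring the counts over both time points was added after seeing the data. Of 31 member symbols, 29 matched the mouse gene names, and Ccl21c and Ccl21d did not. Motifs of interferon-response factors and NF-kB were searched first and are not reported, since no file used here holds their letters, and TATAAA was chosen after that. RefSeq (GRCm38.p6) gave promoters and gene order, and GENCODE vM21 gave exon overlap and shared 100-base windows. Python 3.11.15, numpy 2.4.6, pandas 2.3.3 and matplotlib 3.10.9 were used, and the ratios and calls were tested on simulated data.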

Additional observations from a re-analysis of the deposited data

Results flagged for a closer look

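The ratio between genotypes changed sign between the time points, past 1.3-fold at both, for 4 members. The log2 ratio of ApoE3 to ApoE4 at 21 dpi minus that at 7 dpi was -2.40 for Ccl12, -1.99 for Cxcl10, -1.63 for Cxcl9 and 1.49 for Ccl11. Each group has 1 value, so the difference between time points was not tested. After centring, the ratio of Cxcl10 at 21 dpi was -0.24, below 1.3-fold, and the other 3 members were past it in the same directions. Cxcl9 and Ccl11 had levels of at most 2.28 FPKM.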

How the results depend on the processing

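Of the counts of members, those at a pseudocount of 0.1 FPKM or a mean FPKM of at least 1 were within 1.5 times the reported ones. A minimum fold of 2 left 0 members higher in ApoE4 at 7 dpi, 0 higher in ApoE3 and 4 higher in ApoE4 at 21 dpi, and, in ApoE3, 2 higher and 5 lower at 21 dpi, since fewer ratios pass a larger fold. Centring left 5 members higher in ApoE4 at 21 dpi, and moved the median log2 ratio of all 26 listed members at 21 dpi to -0.010. A pseudocount of 0.1 moved that median to -0.58. Centring, an alternative for these counts chosen after seeing the data, left 2 of the 5 members with the same direction at both time points and 4 in opposite directions, with Ccl2 in place of Cxcl10. Centring raised the number of members with a ratio above 0 at 21 dpi from 3 to 13 of 26. Of the members that passed 1.3-fold, it turned the direction of Ccl21a alone, to 0.038, and the others it turned, such as Ccl27a, Cxcl12, Ackr1 and Ackr3, had not passed. Of the 21 members at 21 dpi named by level and fold, 7 kept their direction and their side of 1.3-fold when centred and all 21 did so at a pseudocount of 0.1. At 7 dpi all 20 did so when centred, and 19 at a pseudocount of 0.1. The size of low members' ratios did depend on the pseudocount, and at 0.1 the log2 ratios at 7 and 21 dpi were 1.36 and -1.55 for Cxcl9, -1.43 and 1.11 for Ccl11, and -0.99 and -0.92 for Ccl7. Some ranks changed with it. At 0.1, Ccl6 was at -0.94 at 7 dpi and no longer lowest, since Ccl11 and Ccl7 lay below it. At 21 dpi, Ccl3 was at -1.48, just above Ccl12 at -1.49 and above Cxcl9, whereas Ccl4 stayed below them at -1.94. Members named outside level and fold were not given alternatives singly. No paired analysis was possible because each group has 1 value per gene. The number of reads per gene, which was not estimated, limits what low levels, such as those of Cxcl9, Ccl11 and Ccl19, can show.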
